A study of Caenorhabditis elegans with 2 samples.

Results

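Divergent promoter peaks of ATTF-3 in Caenorhabditis elegans are the binding sites whose summit lay between the 5' ends of a minus-strand protein-coding gene on the left and a plus-strand protein-coding gene on the right, with both ends within 700 bp of the summit. Of the 1737 peaks in the list made from both replicates, called the joint list here, 295 (17.0%, 95% Wilson interval 15.3 to 18.8%) met this rule. They fell between the ends of 290 gene pairs. Genes were those of Ensembl release 115 on WBcel235, the same assembly as ce11, and the outermost annotated end of each gene was used. Whether transcription starts at these annotated ends was not tested, so distances and spacings refer to the annotation. Among all 2146 neighbouring divergent pairs with ends 1 to 1400 bp apart, these 290 are 13.5%, and that share is the background for the counts of pairs below.

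The samples were whole young adults aged 63 hours of strain RW12296, in which the allele st12296 adds TY1::EGFP::3xFLAG to attf-3 on chromosome III, grown from larvae that hatched after bleaching and were starved at L1. The tags were inserted by CRISPR, and sonicated chromatin was pulled down with an antibody against GFP, followed by sequencing (ChIP-seq). Both libraries, biological replicates 1 and 2, form 1 group, so no conditions were compared and nothing was tested between groups. The profile is that of the tagged protein in 1 strain, and the authors' lists also drew on a control alignment. Because whole worms were used, binding in many cells and stronger binding in fewer cells cannot be told apart, and the peak lists hold no read counts, so that the depth of each replicate is unknown.

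AT-hook proteins, for which attf-3 is named, carry short motifs that insert into the minor groove of DNA rich in A and T. A divergent promoter is a stretch of DNA between a pair of genes transcribed away from each other, so that 1 bound site lies upstream of both. The worm genome is compact, and many neighbouring genes are arranged this way. A peak in such a stretch does not tell which gene of the pair, if either, the protein acts on.

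The sequences below show what the DNA under the strongest members looks like. They are plus-strand sequences from the RefSeq copy of the ce11 assembly. Capitals mark 2 short elements that recurred at these summits, element 1, CGACACTC, and element 2, GTTGTTTA, each shown on either strand and, where both stand at their usual distance, with at most 1 differing base. On the opposite strand they read GAGTGTCG and TAAACAAC. The first set gives the whole stretch between the ends of the pairs T23F6.3/rbd-1, dnj-22/natc-1, cox-16/syp-2 and K07B1.7/try-5. The K07B1.7/try-5 stretch was chosen after its values were seen, because both elements fit into a very short stretch between annotated ends.
T23F6.3/rbd-1, chrIV:12724761-12724985: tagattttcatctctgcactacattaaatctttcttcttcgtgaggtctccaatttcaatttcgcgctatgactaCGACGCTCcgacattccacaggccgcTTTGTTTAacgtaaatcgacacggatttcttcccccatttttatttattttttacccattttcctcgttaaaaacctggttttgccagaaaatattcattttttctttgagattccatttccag
dnj-22/natc-1, chrV:8462121-8462358: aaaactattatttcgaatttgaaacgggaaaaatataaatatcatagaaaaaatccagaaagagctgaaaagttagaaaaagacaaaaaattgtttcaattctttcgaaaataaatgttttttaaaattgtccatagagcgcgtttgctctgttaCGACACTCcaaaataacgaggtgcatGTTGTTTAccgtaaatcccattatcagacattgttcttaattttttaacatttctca
cox-16/syp-2, chrV:5536244-5536486: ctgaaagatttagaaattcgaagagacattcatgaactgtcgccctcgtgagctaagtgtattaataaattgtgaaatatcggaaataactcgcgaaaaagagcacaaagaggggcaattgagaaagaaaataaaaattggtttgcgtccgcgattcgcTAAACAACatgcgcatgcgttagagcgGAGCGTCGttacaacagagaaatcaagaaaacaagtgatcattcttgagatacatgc
K07B1.7/try-5, chrV:9346963-9347043: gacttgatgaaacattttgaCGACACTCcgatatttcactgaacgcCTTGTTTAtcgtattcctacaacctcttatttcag

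The next set gives the summit and 50 bp on either side of it for wider promoters among the strongest members, chosen after their values were seen. The rpb-12/aly-2 and F58G1.2/wago-4 windows hold both elements, the rpt-2/aps-1 window holds element 2 alone, the rps-27/picd-1 window holds element 1 alone, and the mrps-7/Y57G11C.3 window holds neither.
rpb-12/aly-2, chrIV:9147111-9147211: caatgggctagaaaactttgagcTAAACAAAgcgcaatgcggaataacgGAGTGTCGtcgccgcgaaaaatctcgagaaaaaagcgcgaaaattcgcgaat
F58G1.2/wago-4, chrII:12919295-12919395: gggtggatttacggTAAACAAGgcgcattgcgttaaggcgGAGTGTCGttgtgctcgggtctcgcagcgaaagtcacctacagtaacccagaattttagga
rpt-2/aps-1, chrV:6017771-6017871: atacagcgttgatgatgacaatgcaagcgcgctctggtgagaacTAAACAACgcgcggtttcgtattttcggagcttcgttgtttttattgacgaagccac
rps-27/picd-1, chrV:104633-104733: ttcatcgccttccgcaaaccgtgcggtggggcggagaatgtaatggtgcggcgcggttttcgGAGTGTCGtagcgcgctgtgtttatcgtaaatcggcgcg
mrps-7/Y57G11C.3, chrIV:14767854-14767954: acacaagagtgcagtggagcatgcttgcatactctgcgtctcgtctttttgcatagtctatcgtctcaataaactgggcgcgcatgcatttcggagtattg

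The member with the highest signal lay between rpb-12 (WBGene00009078), which encodes a subunit shared by the RNA polymerases, and aly-2 (WBGene00000121), of the ALY family of mRNA export factors. Its summit at 9147161 on chromosome IV was 292 bp from the rpb-12 end and 307 bp from the aly-2 end. The authors' signal value, whose scale is not stated, was 3047.14 in the joint list (rank 5 of 1737), 1570 in replicate 1 and 1508 in replicate 2. Next came T23F6.3/rbd-1 (WBGene00011951 and WBGene00004315), where rbd-1 encodes an RNA-binding protein of ribosomal RNA processing. Its joint signal was 2936.57, with 1446 and 1492 in replicates 1 and 2, and its summit lay 80 bp from the T23F6.3 end and 146 bp from the rbd-1 end. The mrps-7/Y57G11C.3 peak followed with 2545.40 in the joint list, 1204 in replicate 1 and 1353 in replicate 2; mrps-7 encodes a mitochondrial ribosomal protein. These 3 promoters lie on chromosome IV, and all 3 had high signals in both replicates.

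Other members of the top 15 also bordered genes of basic cell functions. F58G1.2/wago-4, at a germline Argonaute gene, had a joint signal of 2185.90, with 1132 in replicate 1 and 1055 in replicate 2. The rpt-2/aps-1 peak, between a proteasome ATPase gene and a clathrin adaptor gene, had 2163.11, with 1022 and 1141 in replicates 1 and 2. Its summit was almost centred, 152 bp from the rpt-2 end and 149 bp from the aps-1 end. The eif-3.E/B0511.17 peak, next to a subunit gene of initiation factor eIF3, had 2128.91, with 1034 in replicate 1 and 1100 in replicate 2. Several of these pairs carried such a gene on each side: orc-5 (origin recognition) with cyb-1 (cyclin B) at 1842.94, rpl-28 with mrpl-49 at 1729.08, and pas-4 (a proteasome subunit) with rpb-3 (an RNA polymerase II subunit) at 1723.47. The other promoters of the top 15 were bath-42/prp-8 at 1951.74, ddx-46/F53H1.4 at 1846.04, R04F11.5/R04F11.2 at 1826.58, rps-27/picd-1 at 1763.56, farl-11/rpl-33 at 1754.77 and luc-7L3/sftb-6 at 1656.35. Of these, prp-8 encodes a core protein of the spliceosome and ddx-46 a DEAD-box helicase of splicing.

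Within the stretch that the rule sets, the median distance to the nearer 5' end was 146 bp (quartiles 78.5 and 211.5), and to the farther end 295 bp (209 and 435.5). From the minus-strand end the median distance was 235 bp and to the plus-strand end 185 bp. Within the spacing, counted from the minus-strand end as 0% and the plus-strand end as 100%, the median position was 55.7% (quartiles 38.4 and 68.6). The summit was nearer the plus-strand end in 163 of 295 peaks (55.3%, 49.5 to 60.8%), nearer the minus-strand end in 131 and equally far in 1, so the interval includes an even split. The rule caps both distances at 700 bp, so these distances are a description of the members.

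**Figure D1:**
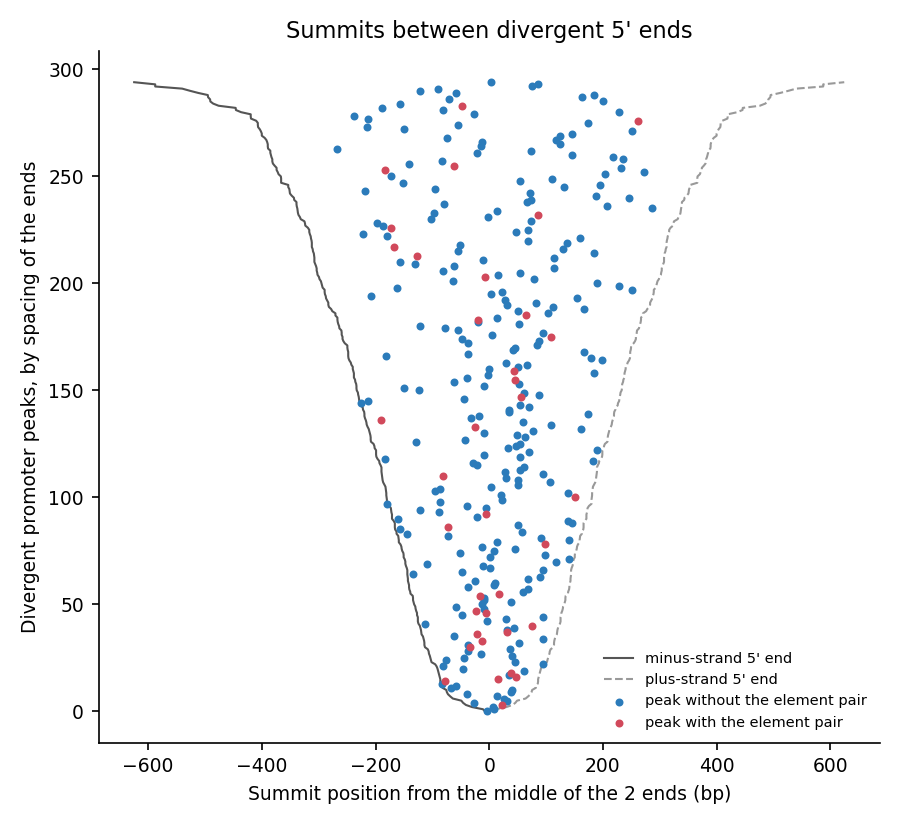
Position of each of the 295 summits relative to the middle of its gene pair (x axis, bp), with peaks stacked by the spacing of the ends (y axis); the lines mark the minus-strand and plus-strand 5' ends, and red points are peaks with both sequence elements at their usual distance. Summits lie on both sides of the middle, with a median offset from the middle of 68.5 bp in either direction.

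The distance to the nearer end grew with the spacing. It had a median of 42 bp where the ends were 1 to 250 bp apart, 104 bp at 251 to 400 bp, 172.5 bp at 401 to 550 bp, 200 bp at 551 to 700 bp and 265 bp at 701 to 1400 bp. As a share of the spacing, the nearer end was a median of 25.7% away in the shortest class and between 33.3% and 38.0% in the other classes. The shortest stretch, F25H9.6/F25H9.7, had its annotated ends 15 bp apart and a summit 4 and 11 bp from them, with a joint signal of 252.90 and replicate signals of 125 and 126. The longest, wve-1/R06C1.4 (wve-1 encodes a WAVE complex protein), had its ends 1249 bp apart with the summit 628 and 621 bp from them, a joint signal of 215.38, and replicate signals of 112 and 106. The peak interval covered neither 5' end in 143 members, 1 end in 114 and both ends in 38. In 2 members the summit fell on an annotated end, and in 3 it lay over the body of a further protein-coding gene.

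The limit of 700 bp divided near neighbours. Just inside it were rab-11.1/rpl-7, 691 and 290 bp from the ends with a signal of 143.75, and bath-42/prp-8, 680 and 310 bp from the ends with a signal of 1951.74. Just outside were nsf-1/adr-1, 483 and 702 bp from the ends with a signal of 121, and E04F6.6/pcrg-1, 706 and 278 bp from the ends with a signal of 156.

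The share of divergent pairs with a summit was lowest at very short spacings and did not differ clearly between the classes from 251 to 700 bp, whose intervals overlapped. A summit was present in 10 of 141 pairs with ends 1 to 150 bp apart (7.09%, 3.90 to 12.6%), in 32 of 232 at 151 to 250 bp (13.8%, 9.94 to 18.8%) and in 78 of 350 at 251 to 400 bp (22.3%, 18.2 to 26.9%). It was present in 63 of 293 pairs at 401 to 550 bp (21.5%, 17.2 to 26.6%) and 55 of 300 at 551 to 700 bp (18.3%, 14.4 to 23.1%). Above 700 bp the rule leaves out a growing part of each stretch at both ends, so the shares there, 46 of 430 at 701 to 1000 bp (10.7%, 8.12 to 14.0%) and 6 of 400 at 1001 to 1400 bp, cannot be compared with the shorter classes. Between genes that point the same way (tandem gaps), 253 of 6464 gaps of 1 to 1400 bp held a joint summit no more than 700 bp upstream of the gene they precede (3.91%, 3.47 to 4.41%). The share was higher for divergent than for tandem gaps, with intervals that did not overlap, in each class up to 700 bp. A divergent gap lies upstream of both its genes and a tandem gap upstream of only 1, and what this adds to the difference was not tested.

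**Figure D2:**
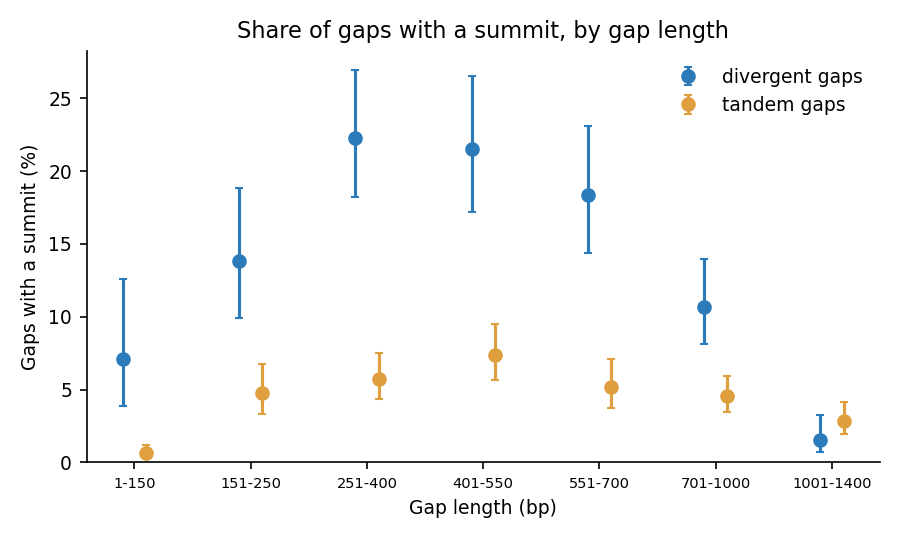
Share of gaps between neighbouring protein-coding genes that held a joint summit (y axis, percent) by gap length (x axis, bp), for divergent and tandem gaps; bars are 95% Wilson intervals, which cover counting error over gaps only. Divergent gaps rise from 7.09% in the shortest class to 22.3% at 251 to 400 bp; above 700 bp the rule itself limits the share.

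The pairs with a summit were unevenly spread over the chromosomes. They were 73 of 374 eligible pairs on I (19.5%, 15.8 to 23.8%), 61 of 333 on III (18.3%, 14.5 to 22.8%), 49 of 374 on IV (13.1%, 10.1 to 16.9%), 47 of 397 on II (11.8%, 9.02 to 15.4%) and 56 of 554 on V (10.1%, 7.87 to 12.9%). On the X chromosome 4 of 114 pairs held one (3.51%, 1.37 to 8.68%). Those 4 members were flwr-1/tbc-1 with a signal of 657.46, gas-1/usp-33 with 515.35, trap-2/ile-2 with 93.48 and dnj-14/glit-1 with 82.87. The trap-2/ile-2 and dnj-14/glit-1 peaks, named after their values were seen to show every member on X, were in neither replicate's own list, while flwr-1/tbc-1 and gas-1/usp-33 were in both.

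Nearly all promoters held a single summit. Of the 290 pairs, 285 had 1 summit and 5 had 2, and in each of those 5 the second was far weaker. At cec-3/T09A5.15, where cec-3 encodes a chromodomain protein, the signals were 1282.90 and 71.01, with the stronger summit on the cec-3 end. The tim-1/Y75B8A.23 promoter had signals of 173.65 and 61.17, C29E4.13/npp-15 had 128.41 and 16.63, and dagl-2/ppm-1.G had 126.87 and 4.0. At aman-2/F58H1.3 the signals were 99.14 and 3.29, the latter the lowest among all members. The next lowest were the second summit of dagl-2/ppm-1.G and that of F22D6.8/F22D6.9 at 9.84. In each of these 5 pairs both summits overlapped the same peak of a replicate, so the second summit's replicate values repeat those of the first.

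Members had higher signals than other peaks. Their median joint signal was 181 (quartiles 121 and 494, range 3.29 to 3047.14), against 135 (100.6 and 274) for the 644 peaks upstream of 1 gene only, within 700 bp of its end, and 105 (88.3 and 148) for the remaining 798 peaks. The quartile ranges of these sets overlapped. Members made up 14 of the 25 highest joint peaks, 41 of the 100 highest and 85 of the 250 highest. With the joint list cut into 10 parts by signal, they were 64 of 174 peaks in the highest part (36.8%, 29.97 to 44.2%) and 11 of 174 in the lowest (6.32%, 3.57 to 11.0%), and between 5.78% and 8.05% in parts 7 to 9. Signal showed almost no relation to the spacing of the ends, with a Spearman's rho of 0.0004 over the 295 members. This and the other correlations describe peaks that share the same libraries, and carry no p-value.

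Both replicates held most members. In the replicates' own lists, 188 of 295 members (63.7%, 58.1 to 69.0%) overlapped a peak of both replicates by at least 1 bp, 63 overlapped a peak of 1 and 44 (14.9%, 11.3 to 19.4%) overlapped none. By replicate, 209 members were in the list of replicate 1, which has 964 peaks, and 230 in that of replicate 2, which has 1063. The share in both lists was 48.3% (44.5 to 52.2%) for peaks upstream of 1 gene and 32.6% (29.4 to 35.9%) for the remaining peaks. Support followed signal: all 74 members of highest signal were in both lists, as were 73 of the next 74, 36 of the next 73 (49.3%) and 5 of the lowest 74 (6.76%). The list made from pooled reads held 273 of the 295 members (92.5%, 88.97 to 95.02%).

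The members found in neither replicate's own list had low signals. Those with the highest joint signal were dagl-2/ppm-1.G (a lipase and a phosphatase gene) at 126.87, Y54G11A.17/elof-1 (elof-1 encodes a transcription elongation factor) at 121.53 and cyn-4/copz-1 (a cyclophilin and a COPI coat gene) at 118.15. In the longer ranked lists, before the threshold, each of these had a signal in both replicates: 61.1 and 49.6 at dagl-2/ppm-1.G, 61.6 and 62.8 at Y54G11A.17/elof-1, and 53.6 and 62.7 at cyn-4/copz-1. Over all members the median signal was 85.1 in replicate 1 and 100 in replicate 2, and the replicates' values had a Spearman's rho of 0.914 and a Pearson's r of 0.972 on log10 values (n = 295 peaks). The joint list was selected for agreement between the replicates, which bears on this correlation. The 295 peaks also include the second summits of 5 pairs, whose replicate values repeat those of the first.

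**Figure D3:**
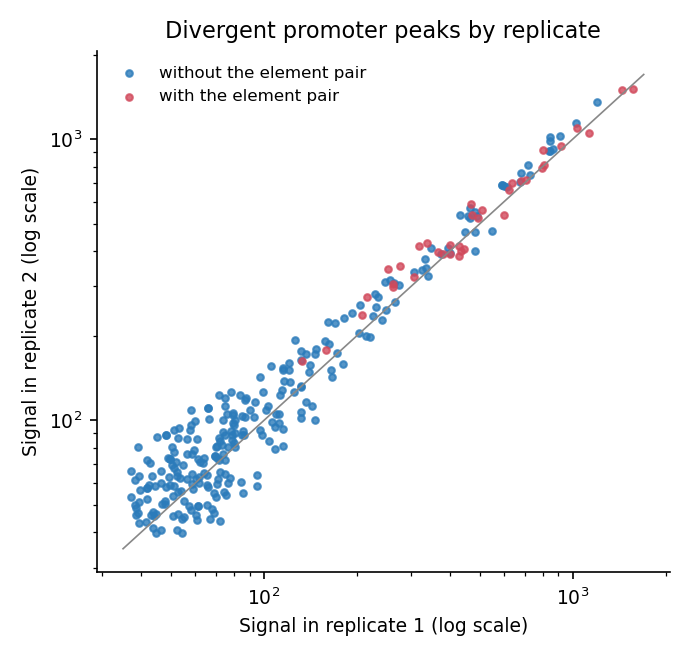
Signal of each of the 295 members in replicate 1 (x axis) and replicate 2 (y axis), both log scales, from the replicates' ranked lists; the line marks equal values and red points are peaks with both sequence elements at their usual distance. Values follow the line over the whole range, more tightly at high signal, and the red points sit in the upper part.

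The DNA under the summits was less rich in A and T than the promoter around it. In windows of 50 bp on either side the mean A+T content at member summits was 54.2% ± 7.99 (SD, n = 295), close to the 54.03% ± 8.36 (n = 644) at peaks upstream of 1 gene. In the middle of the 1856 divergent pairs with no summit it was 66.0% ± 8.60, and in the middle of the 290 pairs with a summit, wherever the summit lay, it was 62.5% ± 10.03. In steps of 21 bp windows the members' mean fell to 49.8% next to the summit and rose to 71.1% at 130 bp to its left and 72.9% at 130 bp to its right. Among members the A+T content had little relation to the signal (Spearman's rho 0.072). The letters TTTTTT, on either strand, were found in 28.1% of member windows and 47.7% of the windows in pairs with no summit. At peaks upstream of 1 gene the share was 31.5%, and at the remaining peaks 20.4%. For members against pairs with no summit, AAATTT was found in 15.6% against 27.6%, and TATAAA in 4.07% against 14.7%. Member windows were centred on the summit, and those of pairs with no summit on the middle. At the middle of all 2146 pairs, with or without a summit, the 3 shares were 47.9%, 26.98% and 13.9%. The lower shares therefore describe the DNA at summits, and do not show that whole promoters with a summit hold fewer of these letters.

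**Figure D4:**
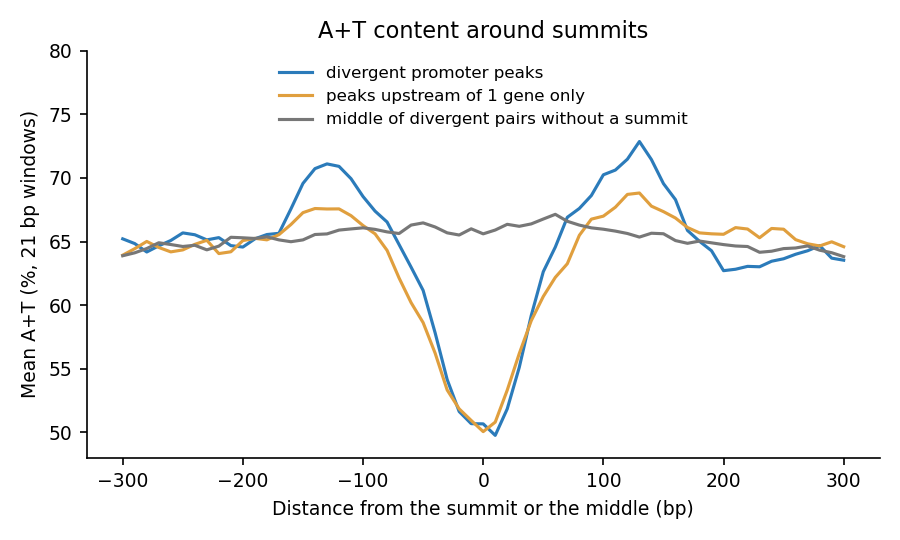
Mean A+T content (y axis, percent, 21 bp windows) by distance from the summit (x axis, bp) for members and for peaks upstream of 1 gene, and by distance from the middle for divergent pairs with no summit. Both summit curves dip near 50% at the centre and peak about 130 bp away, while the curve for pairs with no summit stays between 63% and 68%.

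The 2 elements printed above were frequent at member summits. They were picked because their shares differed most between members and pairs with no summit, so their shares are a description with no test. Windows in pairs with no summit were again centred on the middle of the pair. Element 1, CGACACTC, stood in these windows of 45 members (15.3%, 11.6 to 19.8%), in 10.1% of the windows of peaks upstream of 1 gene, in 3.76% of those of the remaining peaks and in 1 of 1856 windows in pairs with no summit (0.0539%). Element 2, GTTGTTTA, stood in 38 members (12.9%, 9.53 to 17.2%), against 9.32%, 3.01% and 0.269% in the same 3 comparison sets. Either one was present in 63 members, and both in 20. The letters CTGCGTCT were found in 4.41% of member windows, 6.68% of those of peaks upstream of 1 gene, 4.01% of those of the remaining peaks and 1.02% of the windows in pairs with no summit.

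Where both elements occurred, most stood at 1 of 2 neighbouring distances. Allowing 1 differing base in each, and reading both strands out to 100 bp on either side of the summit, 53 combinations of the elements on the same strand were found at members; in 20 of them element 2 started 26 bases after the start of element 1, and in 16 it started 27 bases after. The dnj-22/natc-1 and K07B1.7/try-5 stretches show this order on the printed strand, and cox-16/syp-2 and rpb-12/aly-2 show it on the opposite strand. At these 2 distances, 36 of 295 members held the pair of elements (12.2%, 8.95 to 16.4%), as did 50 of 644 peaks upstream of 1 gene (7.76%, 5.94 to 10.1%), 17 of 798 remaining peaks (2.13%, 1.33 to 3.39%) and 2 of 1856 windows in pairs with no summit (0.108%, 0.0296 to 0.392%). With no differing base allowed, 6.10% of members held it. Counted along the direction from element 1 to element 2, the centre of the pair of elements was offset from the summit by a median of 4.5 bp (quartiles -12.1 and 16). Read from element 1 to element 2, it pointed towards the nearer gene end in 17 of 36 members.

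**Figure D5:**
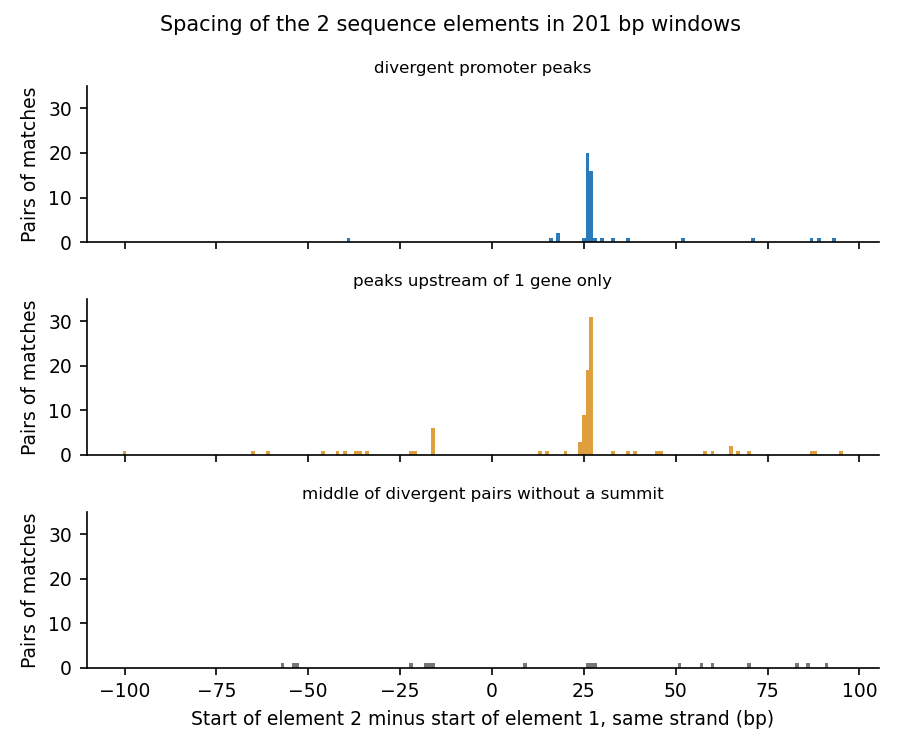
Number of element combinations on the same strand (y axis) by the distance from the start of element 1 to the start of element 2 (x axis, bp) out to 100 bp on either side of the centre, for members, peaks upstream of 1 gene and the middle of divergent pairs with no summit. At members, 36 of 53 combinations stood at 26 or 27 bp, while pairs with no summit gave 2 of 23 there.

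Members with the pair of elements had high signals. Their median joint signal was 857 (quartiles 707 and 1413, range 301.06 to 3047.14, n = 36), against 161 (117 and 294, n = 259) for the other members, so that even the lowest with the elements, gldi-11/ZK546.2 at 301.06, stood above the upper quartile of the others. In replicate 1 the medians were 440 and 76.5, and in replicate 2 they were 424 and 88.7. All 36 were in both replicates' own lists, against 152 of the other 259 (58.7%). They were 7 of the 15 highest members and 24 of the 50 highest, and none of the lowest 100. Some of the highest members lacked it: mrps-7/Y57G11C.3 holds neither element in its printed window, and rpt-2/aps-1 holds element 2 alone. The dnj-22/natc-1 promoter (a DnaJ protein and a subunit of an N-terminal acetyltransferase) had a signal of 1433.56, with 706 in replicate 1 and 714 in replicate 2. At cox-16/syp-2 (cytochrome oxidase assembly and the synaptonemal complex) the signal was 856.69, with 434 and 402, and at K07B1.7/try-5 it was 849.95, with 445 and 409.

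Read from the DNA, almost every divergent pair with both elements at this distance between its ends had a summit there. There were 35 such pairs among the 2146, and 34 of them held a summit (97.1%, 85.5 to 99.5%), against 256 of the other 2111 (12.1%, 10.8 to 13.6%). The elements were chosen on these same peaks, so this contrast is a description. The exception was F54C4.4/mrpl-40, whose stretch of 178 bp was overlapped by a joint peak with a signal of 1306.34 but with its summit outside the stretch. Each element, whether or not the other was present, went with a summit less often. The counts of pairs that follow include pairs that hold both elements, so they are not shares for 1 element alone. Element 2 with no differing base stood between the ends of 76 pairs, 39 of them with a summit (51.3%, 40.3 to 62.2%). In the whole genome element 1 had 1485 matches and element 2 had 4546, while the windows of 140 and 122 joint peaks held them. Element 1 with no differing base stood between the ends of 55 pairs, 46 of them with a summit (83.6%, 71.7 to 91.1%). Among the 9 without one, which were named after their values were seen, were sel-5/wdr-48 on III and ubc-22/ubc-21 on X, where no joint peak overlapped the stretch and neither replicate's ranked list had a summit within the limit.

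Genes of the cell's basic machinery were frequent in these pairs. In 18 lists of such genes, chosen by symbol with earlier results of these data known, 430 eligible pairs held at least 1 listed gene, and 136 of them had a summit (31.6%, 27.4 to 36.2%). Of the 1716 pairs with no listed gene, 154 had one (8.97%, 7.71 to 10.4%), below the 13.5% of all pairs. Where both genes were listed, 26 of 66 pairs had a summit (39.4%, 28.5 to 51.5%). Shared pairs count in each of their lists.

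Genes for proteins of the cytosolic ribosome, which carries out translation, had the highest share of any list. A summit was present in 29 of 46 pairs with such a gene (63.0%, 48.6 to 75.5%), and in 22 of the 29 it was in both replicates' own lists. Their signals ranged widely, from 1763.56 at rps-27/picd-1, with 867 in replicate 1 and 920 in replicate 2, down to 86.60 at rpl-4/B0041.8, with 39.8 and 56.4. Their median was 202. The next highest were farl-11/rpl-33 at 1754.77 and rpl-28/mrpl-49 at 1729.08, both present in both replicates. No cytosolic ribosomal protein promoter held the pair of elements 26 or 27 bases apart. Element 1 occurred in some of them, such as rps-27/picd-1, and farl-11/rpl-33 held both elements in another arrangement. In the 27 peaks with such a gene on 1 side only, the summit was a median of 293 bp from its end (13 to 606 bp) and 213 bp from the partner's end (16 to 691 bp), and it was nearer the partner in 18. This count varied between lists, with 9 of 12 peaks for chaperone genes and 5 of 17 for respiratory chain and ATP synthase genes.

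Other parts of the translation apparatus had lower shares than the cytosolic ribosome. Mitochondrial ribosomal protein genes had a summit in 7 of 25 pairs (28.0%, 14.3 to 47.6%), led by mrps-7/Y57G11C.3, rpl-28/mrpl-49 and Y55F3AM.13/mrps-25 at 888.80. Translation factor genes had one in 6 of 24 (25%, 12 to 44.9%), an interval that includes the background. They were led by eif-3.E/B0511.17, then pbs-2/eif-6 at 988.66 and eef-1A.1/rfc-4 at 712.32, which pairs an elongation factor with a clamp loader subunit. Aminoacyl-tRNA synthetase genes had one in 2 of 15 (13.3%, 3.74 to 37.9%), which is the background share. For ribosome assembly, the nucleolar list had 5 of 15 (33.3%, 15.2 to 58.3%), led by T23F6.3/rbd-1, cec-5/nol-10 at 1043.49 and fib-1/mut-15 (fib-1 encodes fibrillarin) at 387.83.

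The lists of energy supply and protein quality control ranged from near the background to well above it. The respiratory chain and ATP synthase list had a summit in 17 of 39 pairs (43.6%, 29.3 to 59.0%), with Y38E10A.33/cox-10 at 1457.59, cox-16/syp-2 at 856.69 and nuo-6/tofu-5 at 791.86 the highest. The nuo-6/tofu-5 pair joins a complex I subunit gene with a piRNA pathway gene, and cox-10 and cox-16 serve the assembly of cytochrome oxidase. The symbol pattern left out nduv-2 and nduv-3, which are also named for complex I subunits. It counted nduv-2/F53F4.12 through F53F4.12, and did not count mdf-2/nduv-3. Proteasome genes had one in 9 of 21 pairs (42.9%, 24.5 to 63.5%), led by rpt-2/aps-1, pas-4/rpb-3 and pbs-2/eif-6. Chaperone genes had one in 12 of 32 (37.5%, 22.9 to 54.7%), led by dnj-22/natc-1, cct-8/Y55F3AR.2 at 1016.26 (cct-8 encodes a chaperonin subunit) and stip-1/C07E3.9 at 663.93. The symbol pattern also took in stip-1, which is named for a protein associated with the spliceosome. Ubiquitin conjugation genes had one in 5 of 26 (19.2%, 8.51 to 37.9%), an interval that includes the background, the highest being mxl-2/ubc-20 at 964.05, rbx-2/ncbp-1 at 779.10 and gas-1/usp-33 at 515.35.

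DNA replication genes had a summit in 8 of 19 pairs (42.1%, 23.1 to 63.7%), led by orc-5/cyb-1, pri-2/W02D9.2 (primase) at 1323.17 and eef-1A.1/rfc-4. Cell cycle, centrosome and kinetochore genes had one in 14 of 42 (33.3%, 21.01 to 48.4%). After orc-5/cyb-1 these were led by cogc-6/air-1 at 857.78, at the gene of an Aurora kinase, where the summit lay 9 bp from the cogc-6 end, and emb-27/rrf-3 at 498.20, where emb-27 encodes a subunit of the anaphase-promoting complex. Chromatin regulators had one in 10 of 30 (33.3%, 19.2 to 51.2%), led by cec-3/T09A5.15, cec-5/nol-10 and rpl-7A/set-21 at 457.26. The interval of each of these 3 lists lay above 13.5%, as did those of the respiratory, proteasome, chaperone, nucleolar, splicing and both ribosomal protein lists.

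Shares for RNA processing and transport spanned a wide range. Splicing genes had a summit in 8 of 30 pairs (26.7%, 14.2 to 44.4%, just above the background), led by bath-42/prp-8, luc-7L3/sftb-6 and prp-19/K10D2.5 at 391.77. Nuclear pore and transport genes had one in 8 of 23 (34.8%, 18.8 to 55.1%), though with a median signal of 136; its interval also lay above 13.5%, and the highest were npp-3/top-2 at 336.52, unc-40/npp-7 at 169.52 and T23H2.3/npp-12 at 164.63. Argonaute and small RNA genes had one in 8 of 32 (25%, 13.3 to 42.1%), an interval that includes the background, led by F58G1.2/wago-4, nuo-6/tofu-5 and tofu-2/spig-1 at 419.84. RNA polymerase genes had one in 2 of 15 (13.3%, 3.74 to 37.9%), the background share, and these were rpb-12/aly-2 and pas-4/rpb-3, both in the top 15. Vesicle coat and trafficking genes had one in 9 of 48 (18.8%, 10.2 to 31.9%), an interval that includes the background, led by rpt-2/aps-1, flwr-1/tbc-1 at 657.46 and Y71G12A.4/trpp-10 at 643.87. None of the 2 mitochondrial import pairs had one.

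Of the gene families used by particular tissues or in responses to the surroundings, the chemoreceptor, F-box and immunity lists had shares whose intervals lay below 13.5%. Chemoreceptor genes had one in 3 of 171 pairs (1.75%, 0.598 to 5.03%), among them usip-1/srd-4 at 599.38 and rsr-1/sri-5 at 260.53. F-box, MATH and BTB genes had one in 1 of 86 (1.16%, 0.206 to 6.30%), and this was bath-42/prp-8, shared with the splicing list. Immunity and lectin genes had one in 1 of 72 (1.39%, 0.246 to 7.46%), fipr-17/Y48A6B.3 at 85.96, which was in neither replicate's own list. Nuclear hormone receptor genes had one in 1 of 25 (4.0%, 0.710 to 19.5%, which includes the background), nhr-142/F44E7.9 at 187.53. Collagen genes had one in 3 of 25 (12%, 4.17 to 29.96%), near the background, at col-71/Y49F6B.2 with 179.90, col-38/rpl-5 with 155.23 and col-2/ndc-80 with 149.01; rpl-5 and ndc-80 are a ribosomal and a kinetochore gene. None of 8 neuropeptide and insulin pairs, 4 muscle pairs or 9 intestine pairs had one, numbers too small to limit the share beyond 37.5%, 75% and 33.3% by 3 counts of the total.

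Some of these promoters also hold non-coding genes. The 5' end of an annotated non-coding gene lay between the ends of 45 of the 290 pairs with a summit (15.5%, 11.8 to 20.1%) and of 165 of the 1856 without (8.89%, 7.68 to 10.3%). Most belonged to the class annotated as ncRNA, found in 13.8% of the pairs with a summit (10.3 to 18.2%) and in 5.44% of those without (4.50 to 6.57%). Examples were F29G9.10 between rpt-2 and aps-1 and C36B1.16 between pas-4 and rpb-3. The genes for piRNAs, which are clustered on IV, were between the ends of 2 of the 290 pairs with a summit (0.69%, 0.189 to 2.48%). They were between the ends of 38 of the 1856 without (2.05%, 1.495 to 2.798%), and the intervals overlapped.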

How the data were processed

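The data were ChIP-seq peak lists from 2 biological replicates, which the labels place in 1 group. Per the deposited descriptions, each list came from replicate alignments and a control alignment on ce11; which aligner and caller were used is not given in the sources used here. In the authors' lists there is, for each peak, a signal value of unstated scale and a score capped at 1000. In the ranked lists the deposited values, read by the usual column order, hold the −log10 of the irreproducible discovery rate (IDR), and the joint list ended at an IDR of 0.01. Signal was used only to describe and rank peaks. In the series' ranked lists, 4 unnamed columns per replicate were not used. Lists hold no counts, so depth is unknown, and 95% Wilson intervals cover counting error over peaks or pairs only.

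Members were found from 19973 protein-coding genes by the 700 bp rule. Replicate signals were those of the overlapping peak in each replicate's ranked list. Motif windows were searched on both strands. Elements were the 8-mer with the largest excess over windows in pairs with no summit and the next one that shares fewer than 5 letters in a row with it. Members and the 26 gene lists were chosen with earlier results of these data known. Named pairs were the 15 highest, 2 on each side of the limit, the shortest and longest, up to 3 per list, up to 8 with both genes listed, up to 4 with 2 summits (the last such pair was added later), the 3 lowest and 3 in neither replicate's list; others are said to be chosen after their values were seen, as were the members with the pair of elements. One named pair is not reported here. Alternatives were other peak lists, thresholds, distance limits, gene ends, overlaps and windows. Counting steps were tested on simulated data. Python 3.11.15, pandas 2.3.3, numpy 2.4.6 and scipy 1.17.1 were used.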

Additional observations from a re-analysis of the deposited data

How the results depend on the processing

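The number of members stayed between 217 and 346 under all alternatives, against 295. With each replicate left out in turn (the other's own list), the share of pairs with a summit was 10.1 to 10.9%, the median distance to the nearer end 143.5 to 144 bp, the ratio of the members' median signal to that of the list 1.31 to 1.41 (1.47 in the joint list), the A+T content 54.4 to 54.5% and the share with the pair of elements 16.1 to 17.97%. At an IDR of at most 0.001 the share of pairs was 10.9%, the distance 144 bp, the ratio 1.28 and the share in both replicates' lists 79.7%. For the stronger peaks by signal, those at or above the median of the list, these were 10.1%, 147 bp, 1.26 and 84.3%, with 53.9% A+T and 16.6% with the elements. With limits of 500 and 1000 bp the distance was 135 and 156 bp and A+T 54.4 and 54.01%; with the ends of any protein-coding transcript the distance was 142 bp. A+T was 54.6% for the list from pooled reads, 53.97% with overlapping peaks joined and 60.2% with 100 bp on either side. Sharing by at least 1 part in 2 of each peak put 55.6% of members in both lists, and 6.10% held the elements with no differing base. The cause of these differences was not tested, beyond fewer peaks in the shorter lists. Pairs with a machinery gene stayed between 44.5 and 48.6% of pairs with a summit. The alternatives on the elements were added after seeing the data. Support by both replicates has no value with 1 replicate left out. No paired analysis was possible because both replicates form 1 group. Depth is unknown, so how many weaker sites fell below the threshold was not tested.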
